A study of Mus musculus with 18 samples.

Results

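Dusp4, Dusp5, Dusp6, Spry1, Spry2, Spred1, Il17rd, Etv1, Etv4 and Etv5 encode feedback inhibitors and ETS transcription factors that act downstream of fibroblast growth factor (FGF) receptors, and their RNA was compared over 4 groups of mouse mammary tumours. They were taken by gene symbol, as every array feature that the platform annotation assigns to 1 of these names. This gave 12 of 22575 features and 10 of 16887 genes. Dusp4 and Spred1 had 2 features each, which were averaged, and the other 8 genes had 1.

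An FGF that binds its receptor sets off a relay through the adaptor FRS2, the RAS proteins and the kinases RAF and MEK to the kinase ERK. Active ERK raises the transcription of proteins that shut the same relay down, and the level of these transcripts is widely read as a gauge of how strongly a cell is being signalled to. In the mammary gland, FGF signalling through Fgfr2 is needed for the ducts to grow out, and FGF genes are recurrent partners of Wnt1 in tumours that arise in mice infected with mouse mammary tumour virus (MMTV).

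Each of the 18 arrays had 2 channels, one with tumour RNA labelled with Cy5 and one with whole-mouse reference RNA labelled with Cy3. The tumours are labelled Wnt1 (6 arrays), Wnt1_iFGFR1 (4), Wnt1_iFGFR2 (4) and Wnt1_iR2 (4), and the groups are called Wnt1, iFGFR1, iFGFR2 and iR2. All titles carry the strain name FVB and MMTV, the virus whose promoter is commonly used to drive transgenes in mammary epithelium. The Wnt1 label, and with it the Wnt1 oncogene background, is shared by all 4 groups, so no comparison is with normal mammary tissue. A leading i commonly stands for a receptor made inducible, as a fusion that a synthetic drug can dimerize. The labels give no age, no agent or time of treatment, no promoter or founder line for a receptor, and no expansion of iR2. They also do not say whether arrays came from separate animals, so each p-value below reflects only how far these samples scatter, and that scatter may be technical.

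A level is the log ratio of tumour to reference, read as log2, and is comparable between arrays for 1 gene but not between genes. A difference is the first group's mean level minus the second's. A gene passed when its adjusted p in limma, with Benjamini-Hochberg adjustment over all 16887 genes, was under 0.05. The array medians lay between -0.023 and 0.009. The mean of the 9 luminal epithelial markers was 1.26 to 2.77 over the arrays, above the whole-mouse reference on every array. Single markers could lie below the reference. Cd24a averaged -0.22 over all arrays, and the lowest values of Krt8 and Krt19 were -0.031 and -0.044.

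Sequence upstream of the genes is shown for Dusp6 and Etv1, which rose in iFGFR1 tumours, and for Spry1 and Spry2, whose levels were ordered differently over the receptor groups, so that the reader can see the start region behind these transcripts. RefSeq windows of 300 bases (250 before and 50 after an annotated start, assembly GRCm38.p6) were matched by symbol for 8 of the 10 members, in 10 windows. The Dusp6 window lies at chr10:99262981-99263280, plus strand. The Spry1 window lies at chr3:37639697-37639996, plus strand. The Spry2 window lies at chr14:105896770-105897069, minus strand. Etv1 has 2 annotated starts, with windows at chr12:38779832-38780131, plus strand, and chr12:38783461-38783760, plus strand. Each is written from 5′ to 3′ on the gene's strand, and capitals mark the match to a motif.
Dusp6: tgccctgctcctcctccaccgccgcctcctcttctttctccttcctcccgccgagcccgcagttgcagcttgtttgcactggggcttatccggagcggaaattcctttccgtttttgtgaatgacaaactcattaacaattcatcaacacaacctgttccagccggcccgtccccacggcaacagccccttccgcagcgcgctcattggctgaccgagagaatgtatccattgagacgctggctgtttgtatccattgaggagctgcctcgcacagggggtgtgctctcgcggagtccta
Spry1: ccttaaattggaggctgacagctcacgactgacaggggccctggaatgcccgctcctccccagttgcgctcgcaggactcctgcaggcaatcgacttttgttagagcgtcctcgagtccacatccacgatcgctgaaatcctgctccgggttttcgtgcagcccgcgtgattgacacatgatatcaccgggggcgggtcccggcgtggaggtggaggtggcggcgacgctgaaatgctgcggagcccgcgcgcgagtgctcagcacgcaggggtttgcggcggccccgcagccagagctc
Spry2: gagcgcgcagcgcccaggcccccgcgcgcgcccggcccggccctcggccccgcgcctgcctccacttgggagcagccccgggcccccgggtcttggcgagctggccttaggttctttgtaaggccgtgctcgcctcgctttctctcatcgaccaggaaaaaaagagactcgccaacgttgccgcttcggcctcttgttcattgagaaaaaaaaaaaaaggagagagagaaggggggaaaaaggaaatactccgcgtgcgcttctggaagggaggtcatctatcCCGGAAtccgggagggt
Etv1 first window: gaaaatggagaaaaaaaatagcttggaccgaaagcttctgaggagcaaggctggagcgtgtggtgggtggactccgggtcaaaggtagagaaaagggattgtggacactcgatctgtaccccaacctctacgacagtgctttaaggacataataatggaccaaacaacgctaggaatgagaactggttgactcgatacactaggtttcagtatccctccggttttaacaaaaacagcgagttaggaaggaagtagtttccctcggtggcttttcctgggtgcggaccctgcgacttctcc
Etv1 second window: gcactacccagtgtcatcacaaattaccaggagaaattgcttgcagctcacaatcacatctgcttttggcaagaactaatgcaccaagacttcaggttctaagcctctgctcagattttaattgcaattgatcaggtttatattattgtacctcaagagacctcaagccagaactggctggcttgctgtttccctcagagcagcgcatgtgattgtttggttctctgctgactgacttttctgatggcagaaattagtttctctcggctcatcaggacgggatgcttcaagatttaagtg

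Both strands of the windows were searched for 6 motifs. They were an ETS site (CCGGAAGT), a shorter form of it (CCGGAA, which lies within the first) and an AP-1 site (TGANTCA). The others were a CRE (TGACGTCA), an E-box (CACGTG) and a TCF/LEF site (ATCAAAG). The letters GGAA without CC before them, which ETS factors can also bind, were not searched for, so a window without a match may still hold an ETS site. Of the 10 windows of the members, 1 held any of these, the Spry2 window with CCGGAA at base 284, past the annotated start. Among all 32851 windows, 31.3% held at least 1 motif, and the shares were 3.89% for CCGGAAGT, 14.9% for CCGGAA, 7.81% for TGANTCA, 1.79% for TGACGTCA, 7.15% for CACGTG and 3.73% for ATCAAAG. The GC content of the members' windows ran from 44% in the second Etv1 window to 74% in the second Etv5 window. The median over all windows was 52.7%. Both Etv1 windows (48.7% and 44%) lay below it, and every other window of the members lay above it. These matches describe the letters in the windows and nothing more.

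Etv1, Dusp4 and Dusp6 rose in iFGFR1 tumours against Wnt1 tumours, and Dusp4 also rose in iR2 tumours. Set directly against iFGFR1, Dusp4 and Dusp6 passed in neither of the other receptor groups. In iFGFR1 against Wnt1, 3 of 10 members rose and 0 fell, beside 15.4% of all genes that passed in either direction. In iR2 against Wnt1, Dusp4 alone rose (1 of 10 members, beside 7.1% of all genes). In iFGFR2 against Wnt1, 0 of 10 passed in limma, beside 3.43% of all genes, and 5 of the 10 had an unadjusted p under 0.05, as did 20.9% of all genes. With the 3 receptor groups averaged, 3 of 10 rose and 0 fell, beside 12.5% of all genes. The F test over the 4 groups passed for 3 of 10 members (Etv1, Dusp4 and Spry1) beside 19.6% of all genes. All of these comparisons with Wnt1 share the same Wnt1 arrays. The sample titles also carry a number that the labels do not explain, and every iR2 number lies above those of all other groups. With this number as a covariate, iFGFR1 against Wnt1 kept Etv1 and Dusp4. In iR2 and in the average of the receptor groups against Wnt1, 0 of 10 members passed. That fit has little information on iR2, so a lost call does not show that a difference is absent. In the average, the differences with the covariate were 1.004 for Etv1, 0.74 for Dusp6 and 0.54 for Dusp4. Without it they were 1.24, 0.76 and 0.71. Dusp4 in iR2 stood at 0.45 with the covariate and 0.77 without. The share of all genes that passed with the covariate was not counted.

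The median difference from Wnt1 over the 10 members was 0.38 in iFGFR1, 0.43 in iFGFR2 and 0.48 in iR2. Over all genes it was 0.02, 0.01 and -0.05. The count above 0 was 7 of 10 members in iFGFR1, 9 of 10 in iFGFR2 and 6 of 10 in iR2. Members whose groups did not overlap with Wnt1 numbered 2 in iFGFR1 (beside 9.49% of all genes), 0 in iFGFR2 (4.48%) and 3 in iR2 (13.6%). Those in iFGFR1 were higher than Wnt1, while in iR2 Dusp4 and Spred1 were higher and Il17rd was lower. For Dusp4 and Spred1 in iR2 this holds for the averaged features, and 1 feature of each overlapped with Wnt1. No member separated all 12 receptor arrays from the 6 Wnt1 arrays, as 0.841% of all genes did. In tumour pieces such as these, fewer cells of a type and less RNA per cell cannot be told apart.

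**Figure D1:**
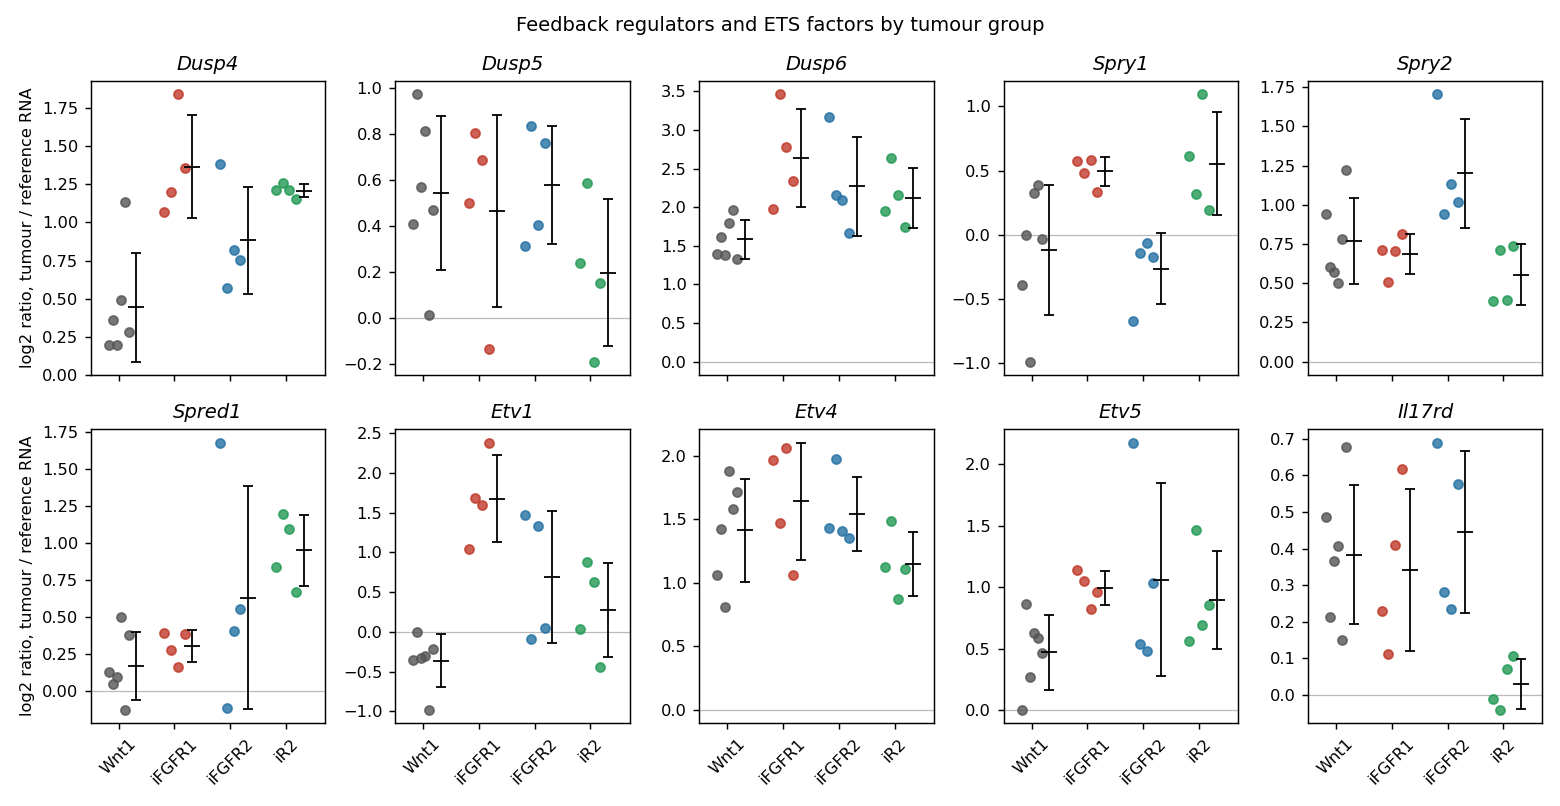
Log2 ratio of tumour to whole-mouse reference RNA for each of the 10 genes, 1 point per array and 1 colour per group, with the group mean and SD. The 4 iFGFR1 arrays lie above all 6 Wnt1 arrays for Etv1 (1.05 to 2.38 against -0.98 to 0.006) and for Dusp6 (1.98 to 3.46 against 1.34 to 1.96), while Dusp5 and Etv4 overlap in every group.

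Markers of some cell types also differed between the groups. In iFGFR1 against Wnt1, 7 of 10 fibroblast markers fell and 0 rose, 5 of 9 luminal markers rose and 0 fell, and 3 of 8 measured squamous keratinocyte markers rose and 0 fell. Of 9 basal and myoepithelial markers, 1 rose and 3 fell. Of 8 endothelial markers 1 fell, and of 7 myeloid and 7 lymphocyte markers 1 each rose. None of 5 measured adipocyte markers passed. Among all genes, 15.4% passed in either direction in this comparison. In iFGFR2 against Wnt1, 1 fibroblast marker fell and 1 luminal marker rose, beside 3.43% of all genes. In iR2 against Wnt1, 1 fibroblast and 2 lymphocyte markers fell, and 2 luminal and 1 basal marker rose, beside 7.1%. The mean level of the fibroblast markers lay between -3.38 and -2.48 in iFGFR1, between -2.63 and -2.19 in iFGFR2, between -2.25 and -2.14 in iR2 and between -2.09 and -0.85 in Wnt1. The luminal mean lay between 2.25 and 2.77 in iFGFR1, between 1.85 and 2.34 in iFGFR2, between 2.26 and 2.39 in iR2 and between 1.26 and 2.68 in Wnt1. For the squamous markers the ranges were -2.50 to -1.45 in iFGFR1, -3.44 to -3.06 in iFGFR2, -3.95 to -1.93 in iR2 and -3.33 to -2.61 in Wnt1. The basal and myoepithelial mean lay between -1.29 and -0.90 in iFGFR1, between -0.79 and -0.34 in iFGFR2, between -0.96 and -0.35 in iR2 and between -0.81 and 0.093 in Wnt1. Their part in the members' differences was not tested.

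The phosphatases come first. Dusp6 encodes a cytoplasmic phosphatase with a strong preference for ERK, and it is the textbook FGF feedback gene. Its level in Wnt1 tumours ran from 1.34 through a median of 1.51 to 1.96. In iFGFR1 tumours it was 1.98, 3.46, 2.78 and 2.33, so that even the lowest array stood above every Wnt1 array. Levels in iFGFR2 tumours were 3.17, 2.15, 2.10 and 1.66, with 3 of 4 arrays above all of Wnt1. The iR2 tumours gave 1.95, 2.64, 2.15 and 1.74, with 2 of 4 arrays above all of Wnt1.

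From Wnt1 (1.58 ± 0.26, SD, n = 6) to iFGFR1 (2.64 ± 0.64, n = 4), Dusp6 rose by 1.06 (SE 0.29, 95% interval 0.46 to 1.66, adjusted p = 0.0173 in limma), which is 2.08-fold. Its differences of 0.69 in iFGFR2 (SE 0.29, adjusted p = 0.173) and 0.54 in iR2 (SE 0.29, adjusted p = 0.274) did not pass. The rise over the average of the receptor groups was 0.76 (SE 0.22, adjusted p = 0.0296). In iFGFR1 the Dusp6 call was lost without replicate 2 (adjusted p = 0.0617, difference 0.78), without replicate 3, and with every array scaled to the same spread (difference 0.84, adjusted p = 0.0805).

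Dusp4 encodes a nuclear phosphatase of ERK and other MAP kinases. On Wnt1 arrays it ran from 0.19 through a median of 0.32 to 1.14, the highest value belonging to replicate 5. The iFGFR1 arrays gave 1.07, 1.20, 1.84 and 1.36, and 3 of the 4 lay above every Wnt1 array. The iFGFR2 arrays gave 1.38, 0.57, 0.82 and 0.76, of which 1 lay above every Wnt1 array. The iR2 arrays were close together at 1.21, 1.26, 1.21 and 1.15, all above the highest Wnt1 array, but the lowest only by a small margin. This holds for the average of the 2 features. On 1 of them the iR2 arrays (0.511 to 0.805) all lay below the highest Wnt1 array (0.812).

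Dusp4 rose by 0.92 in iFGFR1 (SE 0.21, 95% interval 0.49 to 1.36, adjusted p = 0.00592 in limma), which is 1.9-fold, and by 0.77 in iR2 (SE 0.21, 95% interval 0.33 to 1.20, adjusted p = 0.0323), which is 1.7-fold. In iFGFR2 the difference was 0.44 (SE 0.21, adjusted p = 0.239). The 2 features of Dusp4 correlated at r = 0.63 (Spearman's rho = 0.65) over the 18 arrays. In iFGFR1 both of them passed, at 0.98 (adjusted p = 0.0121) and 0.87 (adjusted p = 0.00975). In iR2 only 1 passed, at 1.11 (adjusted p = 0.0054), while the other stood at 0.42 (adjusted p = 0.337), so the iR2 call for Dusp4 rests on 1 feature. It was also lost when any 1 of 8 arrays was left out (Wnt1 replicates 1, 2, 4 and 6 and each of the 4 iR2 replicates), with an adjusted p of at most 0.0976.

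Dusp5, which encodes a nuclear phosphatase that anchors and inactivates ERK, passed in none of the comparisons. Its levels spanned 0.01 to 0.97 in Wnt1, -0.14 to 0.80 in iFGFR1, 0.31 to 0.83 in iFGFR2 and -0.19 to 0.59 in iR2, and all groups overlapped. The 95% interval of its difference from Wnt1 was -0.54 to 0.38 in iFGFR1, -0.43 to 0.50 in iFGFR2 and -0.81 to 0.12 in iR2. A rise of Dusp5 as large as the 1.06 of Dusp6 in iFGFR1 lies outside the first of these intervals.

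The Sprouty and Spred proteins act further up, between the receptor and RAF. Spry1 and Spry2 encode Sprouty proteins, which restrain RAS activation by receptor tyrosine kinases, and their levels were ordered differently over the receptor groups. Spry1 ran from -0.99 through a median of -0.019 to 0.39 in Wnt1. It was 0.58, 0.48, 0.58 and 0.34 in iFGFR1, and 0.61, 0.32, 1.09 and 0.19 in iR2. In iFGFR2 it was -0.67, -0.14, -0.065 and -0.17, every array below every iFGFR1 and every iR2 array.

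Spry1 passed the F test over the 4 groups (adjusted p = 0.0418 in limma) and no single comparison. Its mean was 0.55 ± 0.40 in iR2 (SD, n = 4), 0.49 ± 0.11 in iFGFR1 (n = 4), -0.12 ± 0.51 in Wnt1 (n = 6) and -0.26 ± 0.28 in iFGFR2 (n = 4). Against Wnt1 the differences were 0.61 in iFGFR1 (SE 0.24, adjusted p = 0.093), 0.67 in iR2 (SE 0.24, adjusted p = 0.0963) and -0.14 in iFGFR2 (SE 0.24, adjusted p = 0.782). Between receptor groups, iFGFR2 stood 0.76 below iFGFR1 (difference -0.76, SE 0.26, adjusted p = 0.152) and iR2 stood 0.81 above iFGFR2 (SE 0.26, adjusted p = 0.131).

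Spry2 was highest in iFGFR2, the group in which Spry1 was lowest. It ran from 0.50 through a median of 0.69 to 1.22 in Wnt1, and was 0.72, 0.51, 0.71 and 0.82 in iFGFR1. In iFGFR2 the values were 1.70, 0.94, 1.13 and 1.02, above all iFGFR1 and all iR2 arrays. The iR2 arrays gave 0.38, 0.71, 0.39 and 0.74.

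None of the Spry2 differences passed after adjustment in limma. They were 0.43 for iFGFR2 against Wnt1 (SE 0.19, adjusted p = 0.186), 0.51 for iFGFR2 against iFGFR1 (SE 0.20, adjusted p = 0.209) and -0.64 for iR2 against iFGFR2 (SE 0.20, adjusted p = 0.119). Against Wnt1 the 95% interval was -0.47 to 0.30 in iFGFR1 and -0.60 to 0.17 in iR2.

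Spred1 encodes a membrane protein that brings neurofibromin, an inactivator of RAS, to the plasma membrane. It ran from -0.13 through a median of 0.12 to 0.50 in Wnt1 and was 0.39, 0.28, 0.16 and 0.38 in iFGFR1. The iFGFR2 arrays were widely spread, at 1.68, -0.11, 0.41 and 0.56. The iR2 arrays gave 0.84, 1.20, 1.09 and 0.67, all above every Wnt1 and every iFGFR1 array. This holds for the averaged features. On 1 feature the iR2 arrays (0.498 to 1.105) overlapped with Wnt1 (up to 0.842) and with iFGFR1 (up to 0.772).

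The Spred1 difference of iR2 from Wnt1 was 0.78 (SE 0.25, 95% interval 0.26 to 1.29, adjusted p = 0.0617 in limma) and did not pass. Its 2 features disagreed, with r = 0.23 (rho = 0.21) over the 18 arrays. In iR2 against Wnt1 one gave 1.24 (adjusted p = 0.0306) and the other 0.32 (adjusted p = 0.548). With 1 array left out in turn, the averaged difference passed in 2 of 18 fits. These were the fits without iFGFR2 replicate 1 (adjusted p = 0.0113) and without iFGFR2 replicate 2, arrays that are in neither group of this comparison. The highest adjusted p was 0.186, without iR2 replicate 2.

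Il17rd encodes the transmembrane inhibitor Sef, known from zebrafish as a feedback antagonist of FGF signalling that is expressed together with FGF genes. Its level in iR2 was -0.011, -0.041, 0.070 and 0.105, below all arrays of the other 3 groups. It ran from 0.15 through a median of 0.39 to 0.68 in Wnt1, from 0.11 to 0.62 in iFGFR1 and from 0.23 to 0.69 in iFGFR2. The difference of iR2 from Wnt1 was -0.35 (SE 0.16, adjusted p = 0.192 in limma), from iFGFR1 -0.31 (SE 0.18, adjusted p = 0.277) and from iFGFR2 -0.41 (SE 0.18, adjusted p = 0.255), and none of these passed. In iFGFR1 and iFGFR2 the 95% intervals against Wnt1 were -0.38 to 0.30 and -0.27 to 0.40.

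Etv1, Etv4 and Etv5 form the PEA3 subfamily of ETS transcription factors, which carry FGF signals into the nucleus in many embryonic tissues. Of the 3, Etv1 moved and Etv4 did not pass anywhere. Etv1 ran from -0.98 through a median of -0.31 to 0.006 in Wnt1. In iFGFR1 it was 1.05, 1.69, 1.60 and 2.38, every array more than 1 log2 unit above the highest Wnt1 array. The iFGFR2 arrays fell into a high pair and a low pair, at 1.48 and 1.33 in replicates 1 and 3 and at -0.093 and 0.056 in replicates 2 and 4. The iR2 arrays gave 0.042, 0.88, 0.62 and -0.45, all below the lowest iFGFR1 array.

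Etv1 rose by 2.04 from Wnt1 (-0.36 ± 0.33, SD, n = 6) to iFGFR1 (1.68 ± 0.55, n = 4), with SE 0.33, a 95% interval of 1.35 to 2.73 and an adjusted p of 0.000456 in limma. This is 4.11-fold, and it was the largest difference from Wnt1 of the 10 members in any receptor group. The difference was 1.05 in iFGFR2 (0.69 ± 0.82, n = 4, SE 0.33, adjusted p = 0.0759) and 0.64 in iR2 (0.27 ± 0.59, n = 4, SE 0.33, adjusted p = 0.26), and neither passed. The iFGFR2 value turned on single arrays, with an adjusted p of 0.0252 without replicate 2 and 0.267 without replicate 1. Averaged over the receptor groups, Etv1 rose by 1.24 (SE 0.26, adjusted p = 0.00464), and 10 of 12 receptor arrays lay above all Wnt1 arrays.

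Etv4 was at 0.81 to 1.88 in Wnt1, 1.07 to 2.06 in iFGFR1, 1.35 to 1.97 in iFGFR2 and 0.87 to 1.49 in iR2. Its differences from Wnt1 were 0.23 (95% interval -0.26 to 0.72), 0.13 (-0.37 to 0.62) and -0.26 (-0.76 to 0.23), in the same order of groups, and none passed. Etv5 ran from 0.002 through a median of 0.52 to 0.87 in Wnt1. It was 1.14, 1.05, 0.82 and 0.96 in iFGFR1, and 3 of these 4 arrays lay above all of Wnt1. It was 2.18, 0.54, 0.48 and 1.04 in iFGFR2, and 0.56, 1.47, 0.70 and 0.86 in iR2, so that 1 array led in each of these groups.

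None of the Etv5 differences from Wnt1 passed in limma. They were 0.52 in iFGFR1 (SE 0.27, adjusted p = 0.208), 0.59 in iFGFR2 (SE 0.27, adjusted p = 0.222) and 0.43 in iR2 (SE 0.27, adjusted p = 0.376). Over the receptor groups together the difference was 0.51 (SE 0.21, unadjusted p = 0.0253 in limma's test, adjusted p = 0.119).

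**Figure D2:**
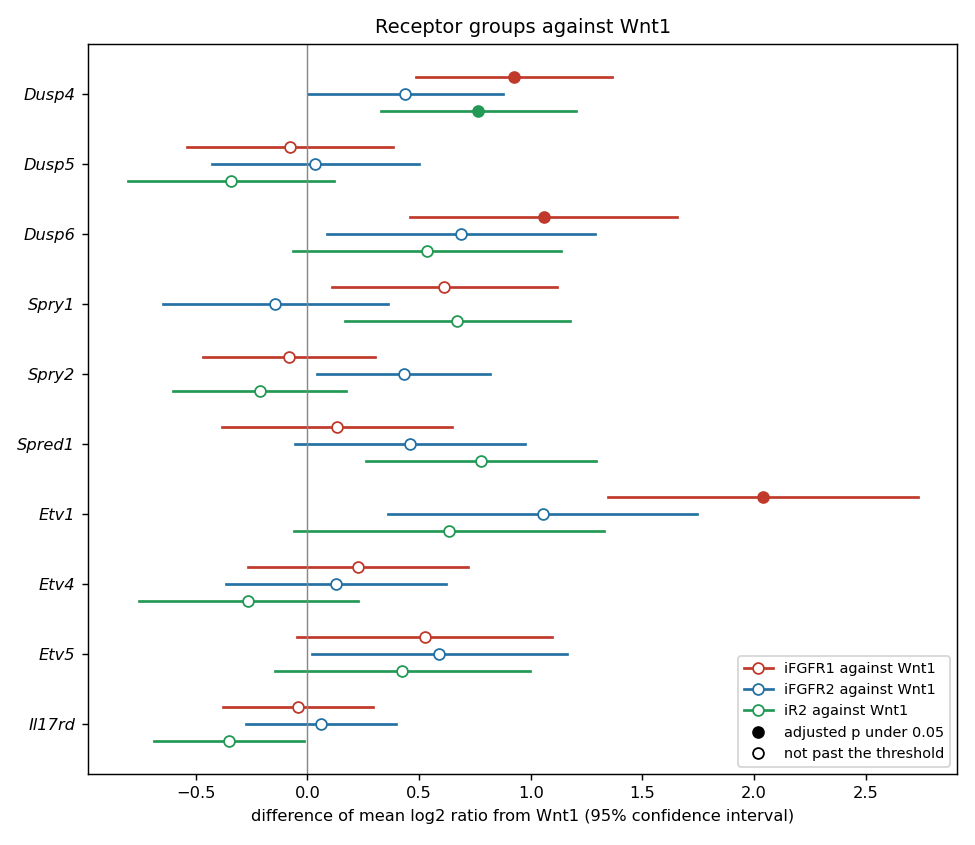
Difference in mean log2 ratio from the Wnt1 group for each gene in each receptor group, with the 95% interval from limma, filled where the adjusted p was under 0.05. The filled points are Etv1, Dusp6 and Dusp4 in iFGFR1 (2.04, 1.06 and 0.92) and Dusp4 in iR2 (0.77).

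Comparisons between the receptor groups asked whether the members distinguish one receptor label from another. Etv1 was the only member to pass in any of them, as it fell by 1.40 from iFGFR1 to iR2 (SE 0.36, 95% interval -2.16 to -0.65, adjusted p = 0.016 in limma), which is 2.65-fold. In that comparison 1 of 10 members passed, beside 11.7% of all genes, so the count does not set the members apart from other genes. There 3 did not overlap (Etv1 and Il17rd lower in iR2, Spred1 higher), beside 22.2% of all genes. Spred1 did overlap on 1 of its 2 features. The Etv1 call was lost without iFGFR1 replicate 4 or iR2 replicate 4 (adjusted p at most 0.0664) and with the title number as a covariate (-1.69, adjusted p = 0.124).

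Between iFGFR2 and iFGFR1, 0 of 10 members passed in limma, beside 2.13% of all genes, and 4 had an unadjusted p under 0.05, as did 16.3% of all genes. The 2 that did not overlap, beside 6.17% of all genes, were Spry1, lower in iFGFR2, and Spry2, higher. Etv1 stood at -0.99 in this comparison (SE 0.36, 95% interval -1.75 to -0.23, adjusted p = 0.175). Between iR2 and iFGFR2, 0 of 10 passed in limma, beside 1.34% of all genes, and 3 had an unadjusted p under 0.05, as did 15.4% of all genes. Those 3 were also the members that did not overlap, beside 13% of all genes, namely Spry1, higher in iR2, and Spry2 and Il17rd, lower.

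The groups' means can be put in order for each member. From high to low, the order was iFGFR1, iFGFR2, iR2 and Wnt1 for Etv1 and Dusp6. It was iFGFR1, iR2, iFGFR2 and Wnt1 for Dusp4. For Etv5 it was iFGFR2, iFGFR1, iR2 and Wnt1, and for Spred1 it was iR2, iFGFR2, iFGFR1 and Wnt1. Wnt1 was thus lowest for 5 members, while iR2 was lowest for Dusp5, Spry2, Etv4 and Il17rd, and iFGFR2 for Spry1. For Dusp4 and Spred1 these are orders of the averaged features, and 1 feature of each gave another order. On 1 Spred1 feature Wnt1 (0.55) stood above iFGFR1 (0.18), so Wnt1 was not lowest there. On 1 Dusp4 feature iR2 (1.71) stood above iFGFR1 (1.47). For none of the 10 members did a pair of neighbours in its order pass in limma.

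The mean over the 10 members, which weighs each gene equally, was 0.53 ± 0.16 in Wnt1 (SD, n = 6), 1.06 ± 0.09 in iFGFR1 (n = 4), 0.90 ± 0.29 in iFGFR2 (n = 4) and 0.79 ± 0.19 in iR2 (n = 4). Every iFGFR1 array (0.96 to 1.17) lay above every Wnt1 array (0.30 to 0.71). This mean includes Etv1, Dusp6 and Dusp4, which had the largest differences there (2.04, 1.06 and 0.92). The differences of Dusp5, Spry2 and Il17rd were -0.08, -0.08 and -0.04, so the separation is not a shift of every member. In iFGFR2 and iR2, 1 array stood above the rest. Replicate 1 of iFGFR2, with a mean of 1.33, was the highest of its group for 7 of 10 members, and the other 3 iFGFR2 arrays lay between 0.69 and 0.82. Replicate 2 of iR2, with a mean of 1.05, was likewise the highest of its group for 7 of 10 members, and the other 3 lay between 0.63 and 0.80.

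**Figure D3:**
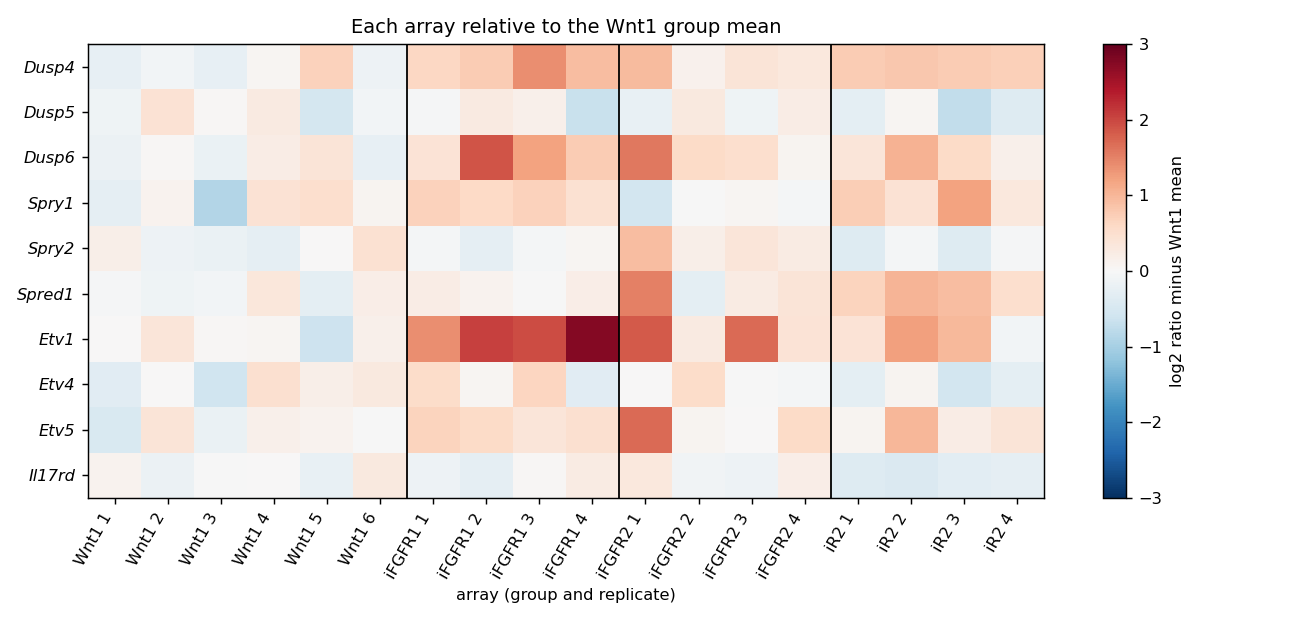
Log2 ratio of each array minus the Wnt1 group mean, for the 10 genes (rows) and 18 arrays (columns, by group and replicate). The Etv1 row is red across iFGFR1, the iFGFR2 replicate 1 column is red for most genes, and the Il17rd row is pale blue across iR2.

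Covariation was described after each group's mean was taken out, as Pearson's r of the deviations over the 18 arrays, which share their groups, the reference and any array effect. Of the 45 pairs of members, 30 were above 0, and the median r was 0.16. The highest was Spred1 with Etv5 (r = 0.76, rho = 0.56), followed by Spry2 with Il17rd (0.62) and Spred1 with Etv1 (0.62). Dusp6 with Etv5 (0.56) and Dusp4 with Dusp6 (0.55) came next, and the lowest was Dusp5 with Spry2 (-0.38).

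Much of this turned on 1 array. Without iFGFR2 replicate 1 the median r was 0.086 and 25 of 45 pairs were above 0. The r of Spred1 with Etv5 was then 0.35 (0.38 without the 2 arrays farthest from the median), and that of Dusp6 with Etv5 was 0.23. Correlations of each member with all other genes had a 99th percentile of 0.58 to 0.73, depending on the member.

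**Figure D4:**
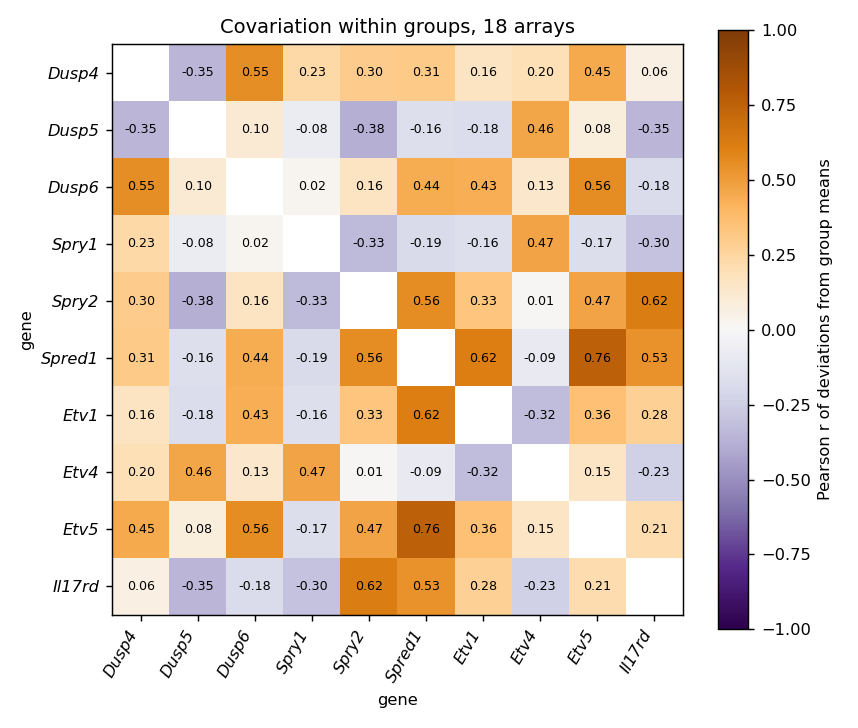
Pearson's r between the members' deviations from their group means over 18 arrays, 1 cell per pair, with a colour scale from -1 to 1. Spred1 and Etv5 have the highest value (0.76), and Dusp5 has values at or below 0.10 with every gene but Etv4 (0.46).

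For the members that passed the F test, the genes most alike over the 18 arrays, group differences included, were ranked by Pearson's r. For Etv1 they were Acsl4 (0.91), Alg5 (0.90) and Socs2 (0.90). For Dusp4 they were Znf41-ps (0.93), Mrps23 (0.90) and Dpp3 (0.89), and for Spry1 they were Sgcb (0.84), Ap3s1 (0.80) and Pbrm1 (0.80). None of these 9 is a member.

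Other genes of the pathway were read from lists. Every count below stands beside the share of all genes that passed in either direction against Wnt1. This share was 15.4% in iFGFR1, 3.43% in iFGFR2 and 7.1% in iR2. A list whose count is near that share is not set apart from other genes. Upstream, Fgfr1, which encodes FGF receptor 1, rose by 1.38 in iFGFR1 (SE 0.18, adjusted p = 6.7e-05 in limma), where Etv1, Dusp6 and Dusp4 rose. Its level was 1.59 ± 0.37 there (SD, n = 4), against 0.22 ± 0.14 in Wnt1 (n = 6), 0.21 ± 0.32 in iFGFR2 (n = 4) and 0.56 ± 0.063 in iR2 (n = 4). Fgfr2 did not pass in iFGFR2 (-0.53, SE 0.24, adjusted p = 0.212) or in any other group against Wnt1, and neither did Fkbp1a or the Wnt1 gene. The largest Fgfr2 difference from Wnt1 was in iFGFR1 (-0.69, SE 0.24, adjusted p = 0.0579), where 4 of 4 arrays lay below every Wnt1 array. The array does not say whether a probe lies in the part of a receptor that a transgene would carry.

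Of 12 receptors and co-receptors, 3 rose and 2 fell in iFGFR1, 1 rose in iFGFR2 and 0 passed in iR2. The risers were Fgfr1, the receptor-binding protein gene Flrt3 (1.43 in iFGFR1 and 1.05 in iFGFR2) and the heparan sulfate proteoglycan gene Sdc4 (1.06 in iFGFR1), and Flrt2 (-0.55) and Gpc1 (-0.75) fell in iFGFR1, Gpc1 being named after its value was seen. Of 23 FGF ligand genes, counting the FGF binding protein Fgfbp1, 1 rose in iFGFR1 (Fgf8, by 0.67) and 1 in iFGFR2 (Fgf3, by 1.51), and 0 passed in iR2. Of 19 measured adaptors and kinases of the relay, including kinases that ERK activates, 2 rose and 1 fell in iFGFR1, 1 fell in iFGFR2 and 1 rose in iR2. These were the adaptor gene Grb2 (0.88) and Mknk2 (0.58), which encodes a kinase activated by ERK, in iFGFR1, the ERK scaffold gene Lamtor3 (-0.58 in iFGFR1 and -0.61 in iFGFR2) and the docking protein gene Gab1 (1.11 in iR2).

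A further list held 16 measured genes of negative feedback and inhibition, not all of them specific to the relay to ERK. Of these, 4 rose and 1 fell in iFGFR1, 0 passed in iFGFR2 and 2 rose in iR2. Errfi1, an inhibitor of EGF receptors, rose by 1.27 in iFGFR1 (SE 0.31, adjusted p = 0.00875 in limma) and by 1.22 in iR2 (SE 0.31, adjusted p = 0.0216). Rasa1, an inactivator of RAS, rose by 0.84 and 0.78, and Lrig1, a negative regulator of receptor tyrosine kinases, by 0.89 in iFGFR1. The phosphatase gene Dusp10 fell by 1.25 in iFGFR1, and Dusp7, named after its value was seen, rose by 0.77 there at an adjusted p of 0.0498. Spry4 and Spred2, the measured relatives of Spry1, Spry2 and Spred1, were also named after their values were seen. Their differences from Wnt1 in the receptor groups were 0.34, 0.08 and 0.16 for Spry4 and -0.14, 0.06 and -0.0069 for Spred2, in the order iFGFR1, iFGFR2 and iR2, and none passed.

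Of 17 other ERK-responsive genes, 6 rose and 1 fell in iFGFR1, 1 rose and 1 fell in iFGFR2, and 2 rose in iR2. Ier3, an immediate early survival gene, rose by 1.76 in iFGFR1 (SE 0.23, adjusted p = 6.89e-05 in limma). It rose by 1.10 over the receptor groups together (adjusted p = 0.000927), where 12 of 12 arrays lay above every Wnt1 array. Hbegf, a ligand of the EGF receptor, rose by 1.66 in iFGFR1. Epha2, an ephrin receptor, rose by 0.98 in iFGFR1 and by 0.76 in iFGFR2, and Phlda1 rose by 1.39 in iFGFR1 and by 1.63 in iR2. Myc rose by 0.63 in iR2.

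Egr1, a classical immediate early target of ERK, went the other way. It fell by 1.17 in iFGFR1 (SE 0.39, adjusted p = 0.0462) and by 1.45 in iFGFR2 (SE 0.39, adjusted p = 0.0439), while in the same limma fit Etv1, Dusp6 and Dusp4 rose in iFGFR1. Among the ERK-responsive genes Hbegf differed most between receptor groups, as it fell by 2.23 from iFGFR1 to iR2 (adjusted p = 0.000149) and by 1.86 from iFGFR1 to iFGFR2 (adjusted p = 0.00208).

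Of 21 other measured ETS factors, 2 rose and 2 fell in iFGFR1, 1 rose in iFGFR2, and 2 rose and 1 fell in iR2. Spdef, an ETS factor of secretory epithelia, rose in each receptor group, by 2.14 in iFGFR1 (SE 0.35, adjusted p = 0.000435 in limma), by 2.83 in iFGFR2 (SE 0.35, adjusted p = 0.000419) and by 2.35 in iR2 (SE 0.35, adjusted p = 0.00132). Its 12 receptor arrays all lay above its Wnt1 arrays, which held for none of Etv1, Etv4 and Etv5. Gabpa rose by 1.63 in iFGFR1 and by 1.22 in iR2. Etv3 (-0.96) and Ets1 (-0.74) fell in iFGFR1, and Spic (-0.77) fell in iR2.

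**Figure D5:**
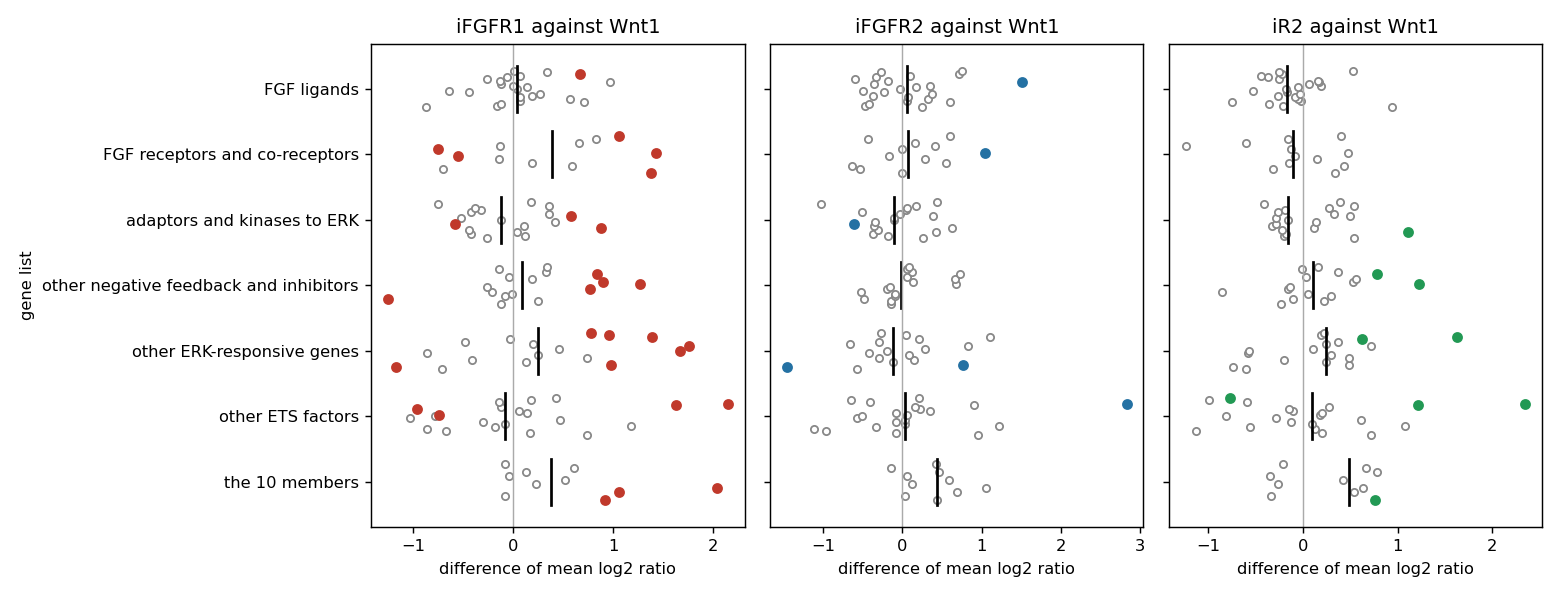
Difference in mean log2 ratio from Wnt1 for every measured gene of the members and of 6 pathway lists in each receptor group, 1 point per gene, filled where the adjusted p was under 0.05, with the list median as a bar. The members' medians (0.38, 0.43 and 0.48) lie above 0 in each group, and the medians of the FGF ligands (0.04, 0.06 and -0.17) lie near 0.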

How the data were processed

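The log2 ratios used here were deposited by the authors as 1 table of 22575 features by 18 arrays with 0 empty cells. Per the labels' protocols, Cy5 marks the tumour RNA of each array and Cy3 the whole-mouse reference. Neither the base nor the direction of the ratio is stated in the table, and base 2 and tumour over reference were assumed. For the scanner, background correction and normalization, no source used here gives the settings. The number of arrays limits the precision.

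The platform annotation gave 18658 features exactly 1 symbol, 30 more than that and 3887 no symbol. Averaging features by symbol left 16887 genes, and no filter was applied. The model was limma 3.58.1 under R 4.3.3, with a mean per group, moderated by eBayes and fitted to the 18 arrays at once without covariates. P-values were adjusted by Benjamini-Hochberg over all genes within a comparison, and 0.05 was the threshold. Each receptor group and their average were set against Wnt1, the receptor groups were set against one another, and an F test covered the 4 groups. Folds assume base 2, and intervals are 95%. The procedure was tested on simulated data.

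Members and lists were chosen with earlier results of these data known. Genes outside the 10 members were named by a rule, as Fgfr1, Fgfr2, Fkbp1a and Wnt1, up to 4 genes with the smallest p past the threshold per pathway list and comparison, and the 3 genes of highest r for each member past the F test. Exceptions are marked. Listed genes were also sought under older symbols in a RefSeq table of GRCm38.p6, the source of the sequences. Alternatives changed the averaging of features, the normalization between arrays, array weights, the prior, the arrays fitted, the title number as covariate, a variance filter and the threshold, and left out each array.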

Additional observations from a re-analysis of the deposited data

Results flagged for a closer look

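Among the 40 combinations of member and group, 3 held an array far from the rest of its group, and chance alone gives this in about 1 of 20 groups. Dusp4 in Wnt1 replicate 5 was at 1.14, with the other Wnt1 arrays between 0.19 and 0.49. Etv1 on the same array was at -0.98, with the others between -0.35 and 0.006, so this array was the highest of its group for Dusp4 and the lowest for Etv1. Without it, the difference of Dusp4 from Wnt1 was 1.06 in iFGFR1 (adjusted p = 0.00162 in limma) and 0.90 in iR2 (adjusted p = 0.0163). Etv4 in iFGFR2 replicate 2 was at 1.97, with the other iFGFR2 arrays between 1.35 and 1.43. Etv1 also differed between receptor groups, by -1.40 for iR2 against iFGFR1 (SE 0.36, adjusted p = 0.016 in limma), with 4 of 4 iR2 arrays below every iFGFR1 array.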

How the results depend on the processing

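Etv1 and Dusp4 in iFGFR1 against Wnt1 passed in every alternative run (highest adjusted p 0.00563 and 0.0405 in limma, both with the title number as a covariate) and with each array left out. No difference that had passed changed sign in any alternative. The number of members past the threshold in iR2 against Wnt1, 1 as reported, was 2 with quantile normalization, with the most variable feature of a gene, with only the arrays compared, or with any feature past, and 3 with arrays scaled to 1 median absolute deviation or at an adjusted p under 0.1. It was 4 with array weights, and 0 with the title number, without the less variable genes, or with every feature past. In iR2 against iFGFR1, also 1 as reported, it was 2 with scaled arrays, array weights or only the arrays compared, and 0 with the title number. In iFGFR2 against Wnt1 it was 1 at an adjusted p under 0.1, and in iR2 against iFGFR2 it was 1 with array weights, both 0 as reported. For the mean of the receptor groups, 3 as reported, it was 0 with the title number, 2 with scaled arrays (Dusp6 lost) or with every feature past, and 4 with the most variable feature (Spred1 gained) or with any feature past. In iFGFR1 against Wnt1, also 3 as reported, it was 2 with scaled arrays or the title number (Dusp6 lost, adjusted p = 0.0805 and 0.0576), and 4 at an adjusted p under 0.1 (Spry1 gained, adjusted p = 0.093). For the F test, 3 as reported, it was 7 with array weights, 1 with the title number and 6 at an adjusted p under 0.1. The cause of these changes was not tested. The share of all genes that passed was not counted in these runs or with an array left out. A changed count of members can therefore not be told from a changed share of all genes. Among alternatives that change the fit, Spred1 in iR2 against Wnt1 had an adjusted p as low as 0.00173 (array weights). With an array left out, its adjusted p reached 0.186 (without iR2 replicate 2). With 1 array left out in turn, the number of members ran from 2 to 3 in iFGFR1, 0 to 1 in iFGFR2, 0 to 2 in iR2 and 2 to 4 for their mean, each against Wnt1. It ran from 0 to 0 in iFGFR2 against iFGFR1, 0 to 2 in iR2 against iFGFR1, 0 to 0 in iR2 against iFGFR2 and 2 to 4 for the F test. Dusp6 in the mean of the receptor groups was lost without Wnt1 replicate 1, 2 or 6 or iR2 replicate 2, with an adjusted p of at most 0.0769. No paired analysis was possible because the replicate numbers follow accession order and pair no arrays.

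The title numbers of iR2 do not overlap with those of the other groups, so a fit with the number as a covariate has little information on iR2. Signal over background is not in the deposited table, so dim features could not be set apart. With 4 to 6 arrays a group, the 95% intervals of the members' differences from Wnt1 are wide, and a member that did not pass is not shown to be level between groups.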
